A study of Mus musculus with 6 samples.

Results

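The zinc finger genes Zfp600 to Zfp999 are the mouse genes with a numbered Zfp symbol in that range. All RefSeq protein-coding genes of this kind on chromosomes 1 to 19 of the mm10 genome were taken, apart from Zfp608, which gave 169 of 20560 protein-coding genes. The rule used names and positions only and no measured value, but the set was chosen with earlier results of these data known. Of these 169 genes, 89 had another of the 169 within 100 kb and are called clustered, and 80 had none and are called single. The clustered genes formed 29 clusters, of which 17 had 3 or more members and 12 were pairs.

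Most proteins with such a name carry arrays of C2H2 zinc fingers, which read DNA sequence, and many also carry a KRAB domain. KRAB domains recruit the corepressor TRIM28, which brings the H3K9 methyltransferase SETDB1 and heterochromatin proteins, and many such factors are known for silencing retroelements. The family grew by tandem duplication, so that many genes lie in clusters of similar copies. CHD7 is an ATP-dependent chromatin remodeller that binds promoters and enhancers and is mutated in CHARGE syndrome, and H3K27ac, the acetylation of histone H3 at lysine 27, accompanies active promoters and enhancers.

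The cells were GFP+ cells sorted by flow cytometry from pharyngeal arches 3 to 6 of mouse embryos at stage E10.5. The embryos came from a cross of Wnt1-Cre2 males with mTmG females, so the Cre driver, which is active in the neural crest lineage and its source in the dorsal neural tube, decided which cells were GFP+. Chromatin immunoprecipitation with sequencing was done for CHD7, for H3K27ac and for input chromatin, with 2 libraries each, numbered 1 and 2, and all libraries shared this genotype, stage and sort. Whether libraries 1 and 2 stem from different litters or sorts is not stated in the labels, so p-values reflect the spread of these libraries alone, and that spread may be technical.

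The deposited data are peak lists of each library, with no read counts, and the depth is unknown. On chromosomes 1 to 19 the CHD7 libraries held 31425 and 26600 peaks, the H3K27ac libraries 23786 and 22244, and the input libraries 417 and 475. Overlapping peaks of both libraries of an antibody were merged into a region, and a gene was counted when a region lay within 1 kb of either of its ends. As a check of the labelled cell type, 2 of 8 neural crest markers (Sox9 and Twist1, and not Sox10, Tfap2a, Tfap2b, Foxd3, Ets1 or Pax3) had an H3K27ac region at an end, against 0 of 6 markers of cardiomyocytes, endothelium and epithelium (Tnnt2, Nkx2-5, Cdh5, Pecam1, Cdh1 and Epcam) and 49.3% of all genes. CHD7 lay at 2 of the 8 (Sox9 and Ets1) and at 1 of the 6 (Epcam), against 46.2% of all genes. Most of the crest markers were thus without a region at an end, and regions elsewhere were not counted.

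The bases just upstream of the annotated start are printed to show how unlike or alike these promoters are. They are given for the clustered genes Zfp869 and Zfp692 and the single genes Zfp687 and Zfp788, which had the highest CHD7 fold enrichment of their kind. They are also given for Zfp965 and Zfp968, neighbouring genes on chromosome 2 with no region of either kind at an end, which were chosen after their values were seen. Each stretch is the 250 bases before the start in RefSeq (GRCm38.p6, which is mm10), read 5′ to 3′ on the strand of the gene. Capitals mark CCAAT or its reverse complement ATTGG, the letters searched for because NF-Y binds such boxes in many promoters.
Zfp869 (chr8:69716903-69717152, minus strand): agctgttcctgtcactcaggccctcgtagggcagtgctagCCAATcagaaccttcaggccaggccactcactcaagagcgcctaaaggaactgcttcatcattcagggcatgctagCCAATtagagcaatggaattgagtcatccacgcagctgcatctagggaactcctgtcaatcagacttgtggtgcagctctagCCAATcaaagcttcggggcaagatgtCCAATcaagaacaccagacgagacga
Zfp692 (chr11:58306819-58307068, plus strand): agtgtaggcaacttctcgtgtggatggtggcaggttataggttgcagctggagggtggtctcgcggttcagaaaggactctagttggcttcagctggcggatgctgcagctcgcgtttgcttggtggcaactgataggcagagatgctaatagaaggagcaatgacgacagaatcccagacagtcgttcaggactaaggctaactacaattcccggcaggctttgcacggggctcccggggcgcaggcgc
Zfp687 (chr3:95015458-95015707, minus strand): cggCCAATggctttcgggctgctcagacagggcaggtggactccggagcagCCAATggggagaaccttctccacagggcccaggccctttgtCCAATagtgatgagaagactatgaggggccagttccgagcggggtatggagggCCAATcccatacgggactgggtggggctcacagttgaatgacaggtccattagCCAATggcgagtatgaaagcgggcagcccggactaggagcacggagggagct
Zfp788 (chr7:41633281-41633530, plus strand): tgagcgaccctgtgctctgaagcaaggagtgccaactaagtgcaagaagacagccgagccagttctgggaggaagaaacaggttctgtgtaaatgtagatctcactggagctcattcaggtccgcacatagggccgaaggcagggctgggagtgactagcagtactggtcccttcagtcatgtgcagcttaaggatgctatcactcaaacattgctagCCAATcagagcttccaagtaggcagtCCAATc
Zfp965 (chr2:175469775-175470024, plus strand): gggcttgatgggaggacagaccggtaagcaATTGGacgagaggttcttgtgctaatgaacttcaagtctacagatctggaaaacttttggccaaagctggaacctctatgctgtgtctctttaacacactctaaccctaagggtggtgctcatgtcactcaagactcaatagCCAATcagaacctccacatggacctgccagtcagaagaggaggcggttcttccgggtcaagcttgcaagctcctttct
Zfp968 (chr2:175372186-175372435, plus strand): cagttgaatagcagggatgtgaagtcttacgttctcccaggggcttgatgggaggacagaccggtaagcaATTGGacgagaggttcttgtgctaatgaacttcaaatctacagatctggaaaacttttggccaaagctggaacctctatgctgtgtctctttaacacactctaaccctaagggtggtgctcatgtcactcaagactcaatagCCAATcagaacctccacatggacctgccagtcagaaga

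Zfp687 had 5 of these boxes, Zfp869 had 4, Zfp788, Zfp965 and Zfp968 had 2 each and Zfp692 had 0. CG dinucleotides numbered 13 in the stretch of Zfp692, 10 in Zfp687, 6 in Zfp869, 4 each in Zfp788 and Zfp965 and 3 in Zfp968. The stretches of Zfp965 and Zfp968 were near-copies that start at different places, with 209 of 210 ungapped columns identical, while the other pairs of the 6 had 49.5% to 55.5% of alignment columns identical. The CHD7 region of Zfp788 covered all 250 bases shown. That of Zfp869 covered only 30 of them and extended into the gene. The regions of Zfp692 and Zfp687 did not reach the stretch, with 16 and 32 bases between, the first downstream of it and the other further upstream.

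CHD7 lay at an end of 97 of the 169 Zfp600 to Zfp999 genes (57.4%), while 46.2% of all protein-coding genes had a CHD7 region. H3K27ac lay at an end of 121 of them (71.6%), while 49.3% of all genes had an H3K27ac region. Both shares were above that background, and the H3K27ac share stood further above it. Both regions were present at 95 genes (56.2%, against 41.2% of all genes), CHD7 alone at 2 (1.18%, against 5.06%), H3K27ac alone at 26 (15.4%, against 8.14%) and neither at 46 (27.2%, against 45.6%). At 93 of the 95 genes with both, a CHD7 region at an end overlapped an H3K27ac region at an end, the exceptions being Zfp651 and Zfp950.

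**Figure D1:**
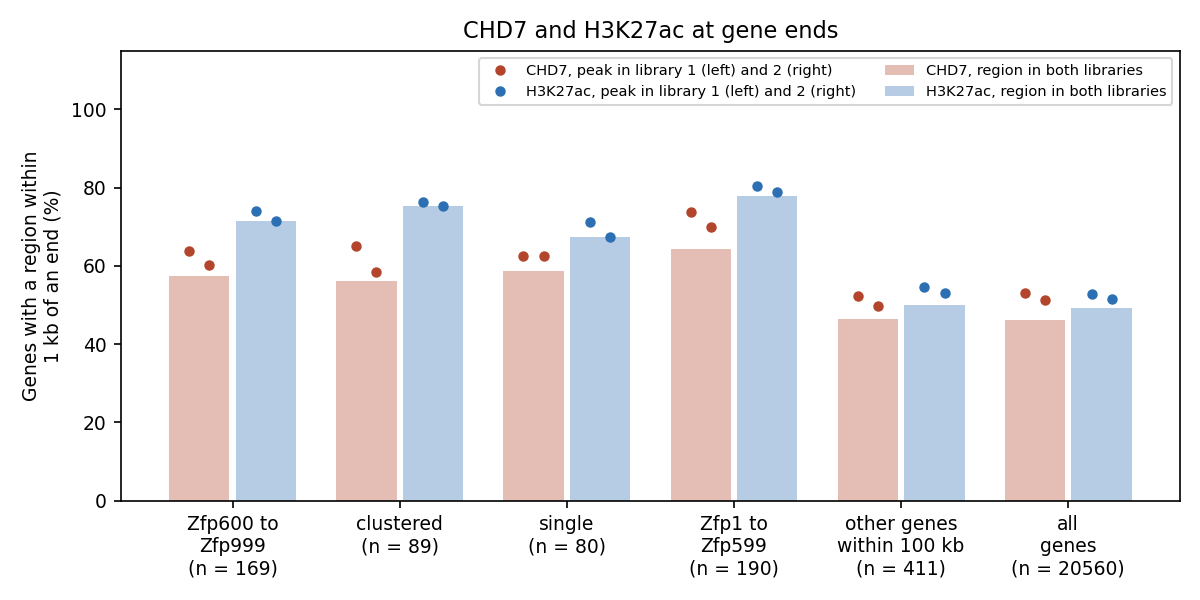
Percentage of genes with a CHD7 (red) or H3K27ac (blue) region within 1 kb of an end, for the Zfp600 to Zfp999 genes, their clustered and single members, the genes Zfp1 to Zfp599, other genes within 100 kb and all genes. Bars count regions found in both libraries and points the peaks of each library. The H3K27ac bar of the Zfp600 to Zfp999 genes stands at 71.6% and that of all genes at 49.3%.

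In single libraries, CHD7 peaks lay at 108 genes (63.9%) in library 1 and at 102 (60.4%) in library 2, a mean of 62.1% ± 2.51 (SD, n = 2). The shares of all genes in those libraries were 53.2% and 51.3%. H3K27ac peaks lay at 125 genes (74.0%) and 121 genes (71.6%), a mean of 72.8% ± 1.67 (SD, n = 2), and the shares of all genes were 52.9% and 51.4%. Both CHD7 libraries were below both H3K27ac libraries at these genes, by 10.7 percentage points on average, whereas over all genes the 4 shares lay between 51.3% and 53.2%. The exact permutation test over libraries, two-sided, gave p = 0.33, the smallest that 2 libraries against 2 allow. The lists differ in length and the longer ones belong to CHD7. Input peaks lay at 0 of the 169 genes in either input library, against 0.0632% and 0.136% of all genes.

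The closest relatives by name, the 190 genes Zfp1 to Zfp599, had still higher shares, with CHD7 at 122 (64.2%) and H3K27ac at 148 (77.9%). The 411 protein-coding genes of other names that lie within 100 kb of a Zfp600 to Zfp999 gene had CHD7 at 191 (46.5%) and H3K27ac at 206 (50.1%). These neighbours were thus close to all genes (46.2% and 49.3%) in both shares. Of the 169 genes, 18 had an end within 1 kb of an end of another protein-coding gene, where a region belongs to neither gene alone. CHD7 lay at 14 and H3K27ac at 16 of these 18, against 83 (55.0%) and 105 (69.5%) of the other 151. The length of the Zfp600 to Zfp999 genes, with a median of 18.2 kb, was close to that of all genes, 17.6 kb.

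Clustered and single genes had similar CHD7 shares, at 50 of 89 clustered genes (56.2%) and 47 of 80 single genes (58.8%). H3K27ac lay at 67 clustered genes (75.3%) and 54 single genes (67.5%). Neither region was found at 22 clustered genes and 24 single genes. H3K27ac without CHD7 was found at 17 clustered genes (19.1%) and 9 single genes (11.2%), and CHD7 without H3K27ac at 0 clustered genes and 2 single genes. Among the genes with H3K27ac, CHD7 was thus present at 50 of 67 clustered ones (74.6%) and 45 of 54 single ones (83.3%), beside 83.5% over all genes with H3K27ac.

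By library, the CHD7 share of clustered genes minus that of single genes was 2.67 percentage points in library 1 and −4.07 in library 2, so the sign differed between the libraries. The same difference for H3K27ac was 5.15 and 7.78 percentage points. The CHD7 differences averaged −0.70 ± 4.77 and the H3K27ac differences 6.47 ± 1.86 (SD, n = 2 each), and the 2 antibodies differed by −7.17 percentage points, with p = 0.33 in the exact permutation test over libraries, again the smallest possible. Some CHD7 peaks were called in 1 library alone, since 8 clustered and 4 single genes had a peak in library 1 alone, and 2 clustered and 4 single genes in library 2 alone. The last 4 include Zfp827, which counts as having a region because its library 2 peak merged with a library 1 peak beyond 1 kb. Among the genes Zfp1 to Zfp599, clustered ones had lower shares than single ones for both, with CHD7 at 60.5% of 86 clustered and 67.3% of 104 single genes and H3K27ac at 73.3% and 81.7%. When only peaks with a −log10 q-value of at least 10 were used, the H3K27ac shares were 47.2% of clustered and 47.5% of single Zfp600 to Zfp999 genes, so the difference between clustered and single genes was not seen in the stronger peaks.

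Of the 29 clusters, 8 had CHD7 at every member (26 genes), 9 at no member (21 genes) and 12 at some members. H3K27ac was at every member in 17 clusters, at no member in 4 and at some members in 8. The clusters thus ranged from marked at every member to no region at any gene end, and neighbours within a cluster often differed in CHD7.

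**Figure D2:**
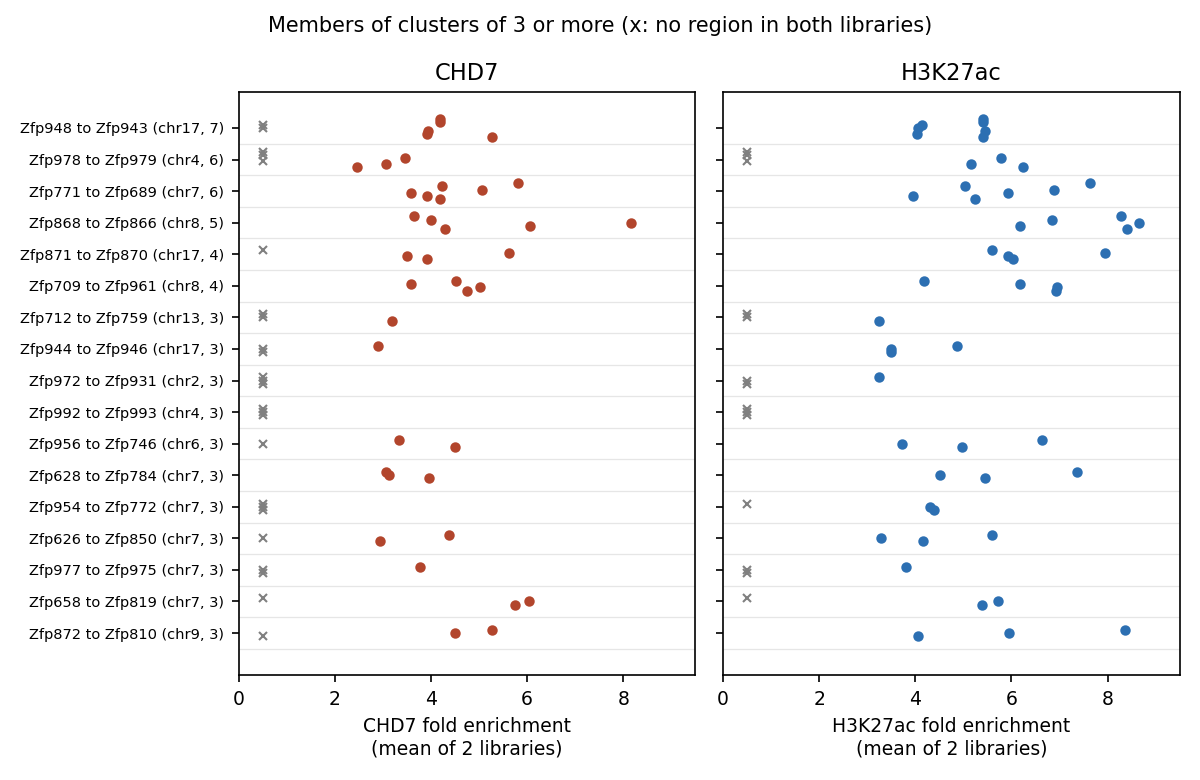
CHD7 (left) and H3K27ac (right) fold enrichment, the mean of 2 libraries, for each member of the 17 clusters of 3 or more genes, 1 cluster per row with its first and last gene, chromosome and number of members; a cross marks a gene with no region found in both libraries, set at an arbitrary place. The row of the cluster Zfp868 to Zfp866 on chromosome 8 has CHD7 and H3K27ac at all 5 genes, and the row Zfp992 to Zfp993 on chromosome 4 has crosses alone.

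The largest cluster lies at chr17:21565816-21994366 and has 7 members, Zfp948, Zfp983, Zfp760, Zfp820, Zfp995, Zfp942 and Zfp943. H3K27ac was at all 7 and CHD7 at 5, the exceptions being Zfp820 and Zfp995, which had a CHD7 peak in library 1 alone. Fold enrichment is the value that the authors' peak caller gave to each peak, and it is given below for library 1 and then library 2. CHD7 fold was 4.74 and 5.81 at Zfp948, 3.30 and 4.55 at Zfp983, and 3.91 and 3.96 at Zfp760. Zfp942 and Zfp943 shared 1 CHD7 region, of fold 3.97 and 4.40, and 1 H3K27ac region. The mean H3K27ac fold of both libraries in this cluster was lowest at Zfp983, with 4.40 and 3.68, and at Zfp820, with 4.40 and 3.72, while in library 1 Zfp995 was lowest, with 3.91. Thus the H3K27ac regions of Zfp820 and Zfp983 had like fold although 1 of these genes lacked a CHD7 region.

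A cluster of 6 genes on chromosome 4 (chr4:147124882-147642508) was divided. Zfp978, Zfp991 and Zfp982 had both CHD7 and H3K27ac, and Zfp988, Zfp985 and Zfp979 had neither. CHD7 fold was 2.40 and 2.53 at Zfp978, 3.52 and 2.63 at Zfp991, and 4.26 and 2.65 at Zfp982. In library 2 all 3 were below the median of 3.96 for the Zfp600 to Zfp999 genes, and in library 1 Zfp982 was above its median of 3.97. The annotated Zfp978 gene overlaps Zfp991, and the strongest CHD7 region of Zfp991 lies inside it. The promoters of the 3 unmarked genes shared 44.6%, 29.2% and 53.5% of their 30-base words with promoters elsewhere, while that of Zfp982 shared 0%. No promoter sequence was available for the other marked genes, Zfp978 and Zfp991.

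The other cluster of 6, at chr7:127242996-127449158, had both marks at every member. CHD7 fold was 6.33 and 5.29 at Zfp689, 4.20 and 5.93 at Zfp764, and 4.26 and 4.19 at Zfp688. It was 3.86 and 3.98 at Zfp768, whose human homologue binds MIR repeats, 3.09 and 4.08 at Zfp747, and 4.57 and 3.81 at Zfp771. The strongest CHD7 region of Zfp771 was the one at its 3′ end.

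The cluster with the strongest regions has 5 members at chr8:69610654-69774911, all with both marks. Its member Zfp869 had a CHD7 fold of 8.08 and 8.22 and an H3K27ac fold of 8.59 and 8.71. CHD7 fold was 5.54 and 6.58 at Zfp964, 4.50 and 4.10 at Zfp868, and lower at Zfp963 (4.17 and 3.84) and Zfp866 (3.74 and 3.55). H3K27ac fold was above 8 in both libraries at Zfp868, Zfp869 and Zfp866, so Zfp866 combined 1 of the higher H3K27ac values with a CHD7 value below the median of these genes. A second chromosome 8 cluster, Zfp709, Zfp882, Zfp617 and Zfp961 at chr8:71882068-71970333, also had both marks at all 4 members.

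In 4 clusters no member had a region of either kind at an end. They were Zfp992, Zfp981 and Zfp993 on chromosome 4, Zfp987 and Zfp600 on chromosome 4, Zfp968 and Zfp965 on chromosome 2, and Zfp790 and Zfp940 on chromosome 7. Zfp940 had a CHD7 peak in library 1 alone, of fold 4.50, and an H3K27ac peak in library 2 alone, of fold 5.17. Away from the gene ends, CHD7 and H3K27ac regions lay inside Zfp993, and H3K27ac regions inside Zfp790. By chromosome, CHD7 lay at 4 of 14 genes on chromosome 2 (28.6%, against 44.2% of all genes there) and 6 of 17 on chromosome 4 (35.3%, against 44.0%), the lowest shares among chromosomes with 12 or more of these genes. It lay at 22 of 36 on chromosome 7 (61.1%, against 33.8%), 13 of 22 on chromosome 17 (59.1%, against 45.2%) and 13 of 16 on chromosome 8 (81.2%, against 51.8%). The Zfp600 to Zfp999 genes were thus below all genes of chromosomes 2 and 4 and above those of chromosomes 7, 8 and 17. Where fewer than 12 of these genes lay, CHD7 was at 4 of 11 on chromosome 13 (36.4%, against 50.3%). Chromosomes 1, 5, 11, 12 and 14 were also below all genes, and 3, 6, 9, 10, 15, 16 and 19 above. On chromosome 17, H3K27ac lay at 20 of 22 genes (90.9%, against 49.9%), and that chromosome held 7 of the 26 genes with H3K27ac alone.

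For each of these genes with a region, the strongest was taken, which gave 95 distinct CHD7 regions. Their fold enrichment had a median of 3.97 in library 1 and 3.96 in library 2. The mean of both libraries ranged from 2.21 to 8.15. The medians over all 10084 CHD7 regions at gene ends were 3.56 and 3.55. For H3K27ac, 118 distinct regions had medians of 5.31 and 5.19, with a range of 2.05 to 9.49, and all 10972 gene-end regions had 4.51 and 4.40. The medians of these strongest regions were thus above the gene-end medians in every library. Their median widths were also larger, at 824 bp (CHD7) and 983 bp (H3K27ac), against 689 and 786 bp over all gene ends. The gene-end medians count every region of a gene, weaker ones included, so these sets are not alike. The fold of the same regions in both libraries correlated by rank with Spearman's rho 0.679 over the 95 CHD7 regions and 0.809 over the 118 H3K27ac regions, a description over regions that share their libraries. Clustered genes had median CHD7 folds of 4.17 and 4.09 and single genes 3.89 and 3.81, while their H3K27ac medians lay between 5.10 and 5.35.

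Zfp869 ranked at place 12 among the 10084 CHD7 regions at gene ends. Zfp692 followed at place 75, with CHD7 fold of 6.98 and 6.71 and H3K27ac fold of 6.41 and 5.02. Its 3′ end, which had no region, overlaps the 3′ end of Zfp672, another of these genes. Among the other clustered genes, CHD7 fold was 6.71 and 5.37 at Zfp719, 7.08 and 4.69 at Zfp619, and 6.81 and 4.69 at Zfp658, whose human homologue is known for a role in the response to zinc. These 3 had a lower fold in library 2 than in library 1, while Zfp799 (5.54 and 5.70), Zfp810 (5.36 and 5.18) and Zfp869 were nearly equal in both. Zfp809, known for silencing retroviruses with TRIM28 through their primer binding site, had both marks, with CHD7 fold of 4.45 and 4.56 and H3K27ac fold of 6.06 and 5.82.

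The highest CHD7 values of single genes were those of Zfp687, a partner of the chromatin reader ZMYND8, with 6.49 and 5.77, and of Zfp788, with 5.87 and 5.82. At Zfp687 the H3K27ac fold was 6.38 and 5.40, and at Zfp788 it was 5.99 and 5.72. Next came Zfp786, with CHD7 fold of 5.55 and 5.61 at an end shared with Zfp398, and Zfp949, with 6.20 and 4.93. The CHD7 summits of this Zfp786 region lay well upstream of the nearest annotated start of the gene. A weaker CHD7 region inside Zfp786, of fold 4.18 and 3.63, had its centre 329 bp from that start. An H3K27ac region of fold 6.66 and 4.93 had its centre 216 bp from it. The rest of the 10 highest single genes, Zfp606, Zfp959, Zfp706, Zfp653, Zfp958 and Zfp637, lay between 4.43 and 5.24 in both libraries. The lowest CHD7 values were those of Zfp651 (2.48 and 1.95) and Zfp827 (2.08 and 2.41). Zfp644, known as a partner of the H3K9 methyltransferases G9a and GLP, had both marks with CHD7 fold of 3.53 and 3.93, and Zfp746, a repressor also named PARIS and a substrate of parkin, had both with 2.84 and 3.82.

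H3K27ac fold was highest at Zfp873, with 9.91 and 9.06, where CHD7 fold was 3.72 and 3.93. Zfp661 had an H3K27ac fold of 8.30 and 10.4 at an end shared with Mrps5, Zfp606 had 9.29 and 8.62, and Zfp653 had 7.88 and 9.995 at an end shared with Ecsit. Of the 5 genes with the highest H3K27ac fold, Zfp869 alone was also among the 5 with the highest CHD7 fold.

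The 26 genes with H3K27ac but no CHD7 region had weaker and narrower H3K27ac regions. Their 25 distinct regions had median folds of 4.40 and 3.72 and a median width of 610 bp. The 93 H3K27ac regions of genes with CHD7 had 5.83 and 5.50 and 1090 bp. The same order was found over all genes, with medians of 3.97 and 3.92 for 1529 regions without CHD7 and 5.02 and 4.90 for 7267 regions with it. Of the 26 genes, 13 had a CHD7 peak in 1 library, so for these the absence of a CHD7 region is the absence of a second call. At 4 of the 46 genes with neither region, CHD7 was likewise called in 1 library. Among the 46, H3K27ac was called in 1 library at Zfp781, Zfp940, Zfp970 and Zfp971.

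**Figure D3:**
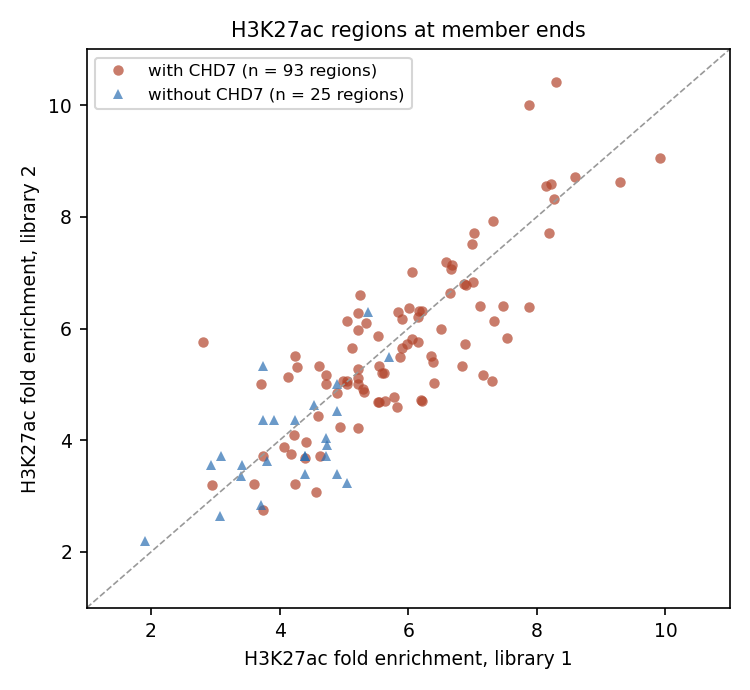
H3K27ac fold enrichment, as the authors' caller wrote it, in library 1 (x axis) and library 2 (y axis) at the ends of the Zfp600 to Zfp999 genes, 1 point per distinct region, with CHD7 at the gene (93 regions, red circles) or without (25 regions, blue triangles); the dashed line marks equal values. The regions without CHD7 sit in the lower part, with medians of 4.40 and 3.72.

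Among the genes with H3K27ac alone, H3K27ac fold was highest at Zfp748, with 5.38 and 6.30, and CHD7 was called there in library 1 with fold 4.35. Zfp870 had 5.70 and 5.49, again with CHD7 in library 1 (3.60), and Zfp954 had 4.72 and 4.04 with CHD7 in library 1 (5.09). No CHD7 peak of either library lay at Zfp879 (4.89 and 5.01), Zfp935 (4.89 and 4.52), Zfp947 (3.75 and 5.33) or Zfp773 (4.24 and 4.36). The other genes of the 10 highest were Zfp704, Zfp839 and Zfp941, each with a CHD7 peak in 1 library of fold 2.77 to 4.17. The remaining 16 were Zfp605, Zfp641, Zfp667, Zfp703, Zfp758, Zfp777, Zfp808, Zfp820, Zfp872, Zfp931, Zfp932, Zfp939, Zfp944, Zfp974, Zfp994 and Zfp995, of which Zfp758 and Zfp944 shared 1 H3K27ac region. Zfp932, known to bind endogenous retroviruses in mouse embryonic stem cells, had H3K27ac fold of 5.05 and 3.23, and Zfp703, a corepressor of the NET family, had 1.91 and 2.20, at the low end of the range.

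CHD7 alone was found at Zfp612, with fold 3.90 and 3.52, and at Zfp638, with 2.91 and 3.35. Zfp638, a nuclear protein that silences unintegrated retroviral DNA together with the HUSH complex, has a second annotated start inside the gene. There a CHD7 region of fold 5.19 and 5.07 and an H3K27ac region of fold 9.80 and 9.12 were found, at chr6:83914386-83915401 and chr6:83914279-83915239. Both Zfp612 and Zfp638 had an H3K27ac peak at the gene end in library 1, of fold 3.26 and 3.096.

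The 46 genes with neither region were 22 clustered ones (Zfp600, Zfp708, Zfp759, Zfp772, Zfp790, Zfp819, Zfp934, Zfp940, Zfp965, Zfp968, Zfp971, Zfp972, Zfp976, Zfp977, Zfp979, Zfp981, Zfp984, Zfp985, Zfp987, Zfp988, Zfp992 and Zfp993) and 24 single ones (Zfp616, Zfp640, Zfp648, Zfp652, Zfp677, Zfp735, Zfp750, Zfp781, Zfp787, Zfp791, Zfp821, Zfp831, Zfp853, Zfp936, Zfp951, Zfp957, Zfp960, Zfp966, Zfp967, Zfp970, Zfp973, Zfp980, Zfp990 and Zfp996). Zfp750 is known for its role in the differentiation of the epidermis, and Zfp819 for retroelement repression in pluripotent cells. Of the 46, 11 had a region of either kind inside the gene, more than 1 kb from both ends. At Zfp759, Zfp787, Zfp791, Zfp821 and Zfp984 a CHD7 region and an H3K27ac region lay within 1 kb of an annotated start that is no gene end, and at Zfp708 and Zfp790 an H3K27ac region did. At Zfp984 these regions were 2336 and 2353 bp from the gene end, with CHD7 fold 4.92 and 3.81 and H3K27ac fold 5.54 and 5.24. At Zfp821 the regions inside the gene had CHD7 fold 3.00 and 3.25 and H3K27ac fold 9.47 and 10.54. Outside the Zfp821 gene, another CHD7 region lay 1580 bp from an end, with fold 4.51 and 4.45, and another H3K27ac region 1966 bp away, with fold 6.58 and 6.88.

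CHD7 regions between 1 and 2.5 kb from an end, with none closer, were also found at Zfp605 (1805 bp, fold 4.86 and 4.65), Zfp704 (2348 bp, 2.94 and 2.54), Zfp853 (1848 bp, 2.91 and 2.93) and Zfp879 (1252 bp, 4.68 and 5.41). For Zfp704 these values are of the stronger of its regions there, and a region of fold 2.58 and 2.81 lay nearer to the end. Zfp605, Zfp704 and Zfp879 are thus genes with H3K27ac at the end and CHD7 outside the 1 kb limit. CHD7 regions in the gene body were found at 23 genes (13.6%, against 15.8% of all genes) and H3K27ac regions at 19 (11.2%, against 12.9%), both shares near the background.

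A strand was known for 148 of the 169 genes. Among these, CHD7 lay at the 5′ end of 85 (57.4%, against 44.2% of 16457 genes with a strand) and at the 3′ end of 6 (4.05%, against 7.22%). H3K27ac lay at the 5′ end of 107 (72.3%, against 48.2%) and at the 3′ end of 1 (0.676%, against 4.75%). The regions were thus nearly all at the starts of the genes, and none of the 148 had CHD7 or H3K27ac at the 3′ end without the 5′ end. The 6 genes with CHD7 at both ends were Zfp617, Zfp628, Zfp653, Zfp771, Zfp799 and Zfp871, and Zfp647 and Zfp991, of unknown strand, also had it at both. At the 3′ end, CHD7 fold was 4.46 and 5.01 at Zfp799, 4.57 and 3.81 at Zfp771 and 3.59 and 3.84 at Zfp628. The 3′ regions of Zfp771 and Zfp628 overlapped an H3K27ac region, and those of Zfp617, Zfp653, Zfp799 and Zfp871 did not.

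The summit of the strongest CHD7 region lay inside the gene more often than upstream of it. Its median position was 206 bp inside from the nearest annotated start in library 1 and 159 bp in library 2, over 85 genes, against 212 and 209 bp over all genes with CHD7. It lay upstream of the start at 29 and 28 of the 85 genes (34.1% and 32.9%, near the 36.6% and 36.4% of all genes with CHD7), among them Zfp687, Zfp788 and Zfp949. For H3K27ac the median was 186 and 166 bp over 107 genes, against 228 and 229 bp over all genes. H3K27ac summits within 250 bp of the start made up 43.0% and 57.0% of these genes, against 30.4% and 30.3% of all genes, and CHD7 summits 31.8% and 42.4%, against 26.5% and 28.5%. At clustered genes 48.3% and 66.7% of H3K27ac summits were this close, and at single genes 36.2% and 44.7%.

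**Figure D4:**
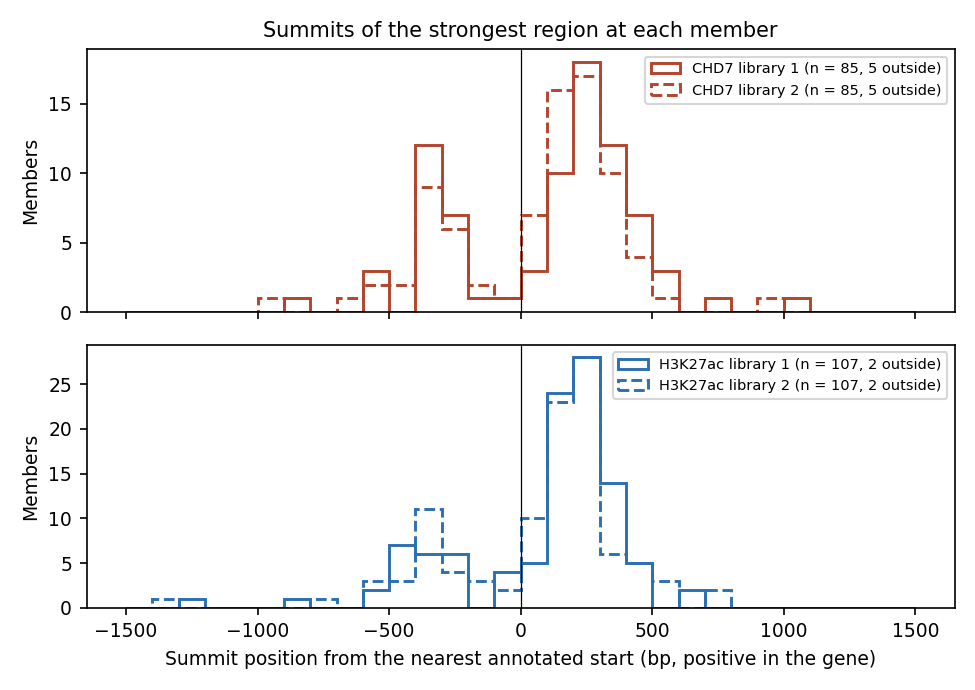
Position of the summit of the strongest CHD7 (top) and H3K27ac (bottom) region from the nearest annotated start, in bp and positive inside the gene, as the number of Zfp600 to Zfp999 genes per bin of 100 bp (solid line, library 1; dashed line, library 2). Most summits lie just inside the gene, with medians of 206 and 159 bp for CHD7 and 186 and 166 bp for H3K27ac.

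Promoters of 300 bases, from 250 before to 50 after the start, were available for the same 148 genes and for 16457 genes in all. The start used was the annotated one nearest the 5′ end, while marks were counted at gene ends, so they can differ in place. CHD7 lay within 1 kb of an annotated start but not of a gene end at 5 Zfp600 to Zfp999 genes, and H3K27ac at 8. In all comparisons of promoter sequence here and below, these genes count as without that mark. The Zfp600 to Zfp999 promoters were poorer in CG dinucleotides, with a median of 10, against 14 over all genes. Within these genes the CG number followed the marks at gene ends, with a median of 14 where both were present, 9 with H3K27ac alone and 5.5 with neither. The same medians over all genes were 23 with both and 4 with neither, so marked Zfp600 to Zfp999 genes had fewer CG dinucleotides than marked genes at large.

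Classes of equal CG number were therefore set side by side. With 0 to 4 CG dinucleotides, CHD7 lay at 12.5% and H3K27ac at 25% of 16 Zfp600 to Zfp999 genes, against 6.42% and 6.51% of 4627 genes. With 5 to 9 CG dinucleotides, CHD7 lay at 44.9% and H3K27ac at 65.3% of 49 Zfp600 to Zfp999 genes, against 25.3% and 29.1% of 2185 genes. With 10 to 19 they lay at 75% and 84.1% of 44 genes, against 62.6% and 67.1% of 3497. With 20 or more they lay at 71.8% and 87.2% of 39 genes, against 75.05% and 79.5% of 6148. The gap to all genes in percentage points was thus widest in the class of 5 to 9, and for CHD7 it had the opposite sign in the richest class. The genes Zfp1 to Zfp599 had 46.7% and 63.3% in the class of 5 to 9 (30 genes), close to the Zfp600 to Zfp999 genes.

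**Figure D5:**
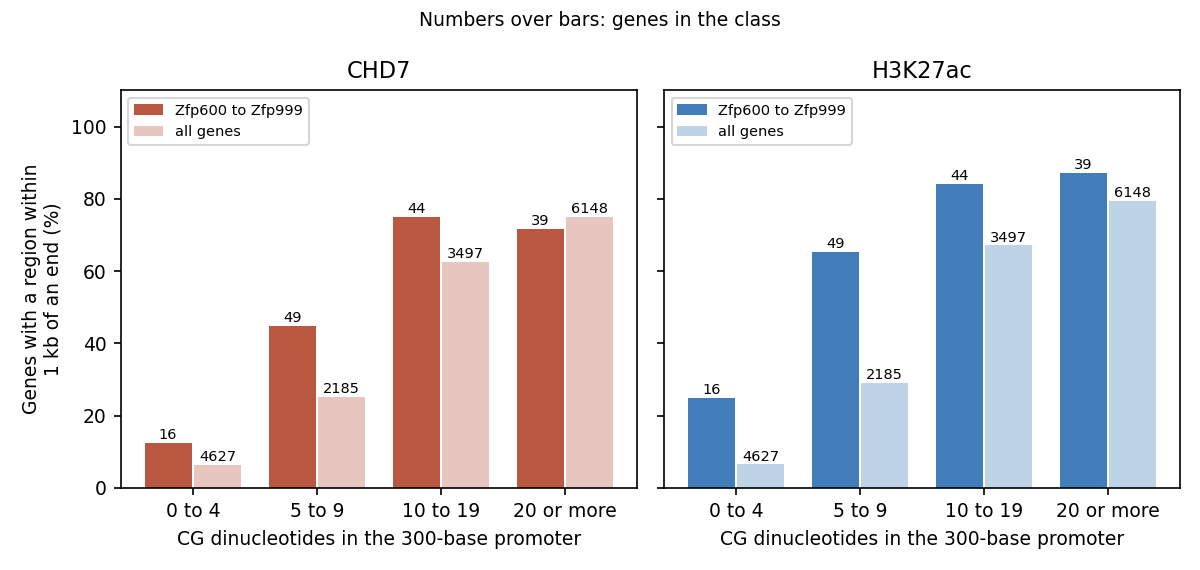
Percentage of genes with a CHD7 (left) or H3K27ac (right) region within 1 kb of an end by the number of CG dinucleotides in the 300-base promoter, for the Zfp600 to Zfp999 genes (dark) and all genes (pale), with the number of genes over each bar. In the class of 5 to 9 the H3K27ac bars stand at 65.3% and 29.1%.

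Promoters that share a stretch of sequence with another promoter were common in this family. Of the 148 promoters, 44 (29.7%) shared a word of 30 bases with the promoter of another gene at another place in the genome, against 11.02% of all promoters and 7.84% of those of Zfp1 to Zfp599. The share was 36.2% of 80 clustered and 22.1% of 68 single genes. CHD7 lay at 11 of the 44 genes that shared a word (25%) and at 74 of the 104 that did not (71.2%). H3K27ac lay at 21 (47.7%) and 86 (82.7%) of them. Among genes with neither mark, 57.5% shared a word, among those with H3K27ac alone 43.5%, and among those with both 13.1%. Over all genes the shares were 10.1% (CHD7) and 12.1% (H3K27ac) with a shared word and 51.0% and 54.3% without. Unmarked genes with a shared promoter word are thus not confined to this family. Reads that fit several copies equally well cannot be placed at 1 of them, the authors' handling of such reads is not given in the sources read, and the part of this in the missing regions was not tested.

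Among genes with a shared word, CHD7 lay at 6 of 29 clustered genes (20.7%) and 5 of 15 single genes (33.3%). Among genes without one, CHD7 lay at 38 of 51 clustered genes (74.5%) and 36 of 53 single genes (67.9%), and H3K27ac at 45 (88.2%) and 41 (77.4%). Over all 169 genes the clustered ones had the lower CHD7 share, but the sign of that difference was not the same in both libraries. Clustered genes had the higher CHD7 share where the promoter shared no word, a measure chosen after seeing the data. In the class of 5 to 9 CG dinucleotides, 25 genes with a shared word had CHD7 at 28.0% and H3K27ac at 44.0%, and 24 genes without one had 62.5% and 87.5%. Over all genes of that class the shares were 18.4% and 25.4% with a shared word and 26.0% and 29.5% without, a smaller gap. Zfp965 and Zfp968, whose near-copies are printed above, had 95.6% and 100% of their words shared. Zfp966, Zfp967, Zfp970, Zfp973 and Zfp781 also had 100%, and none of these 7 genes had a region found in both libraries at an end. In library 1 alone, Zfp781 had a CHD7 peak of fold 3.15 and an H3K27ac peak of fold 3.75. In library 2 alone, Zfp970 had an H3K27ac peak of fold 3.56. Of the 20 genes with over 50% of words shared, CHD7 lay at 4 (20%) and H3K27ac at 7 (35%). Both shares were above those of all 702 genes with over 50% shared, 8.83% and 11.4%. Zfp942 and Zfp943, with 88.9% and 89.7% shared, had both marks, and Zfp758, Zfp944 and Zfp931 had H3K27ac alone with 87.1%, 79.7% and 74.9% shared.

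CCAAT stood in more of these promoters than in others. On either strand it was found in 91 of 148 (61.5%), against 39.1% of all promoters and 39.2% of those of Zfp1 to Zfp599. It was present in 70.0% of clustered and 51.5% of single genes, and in 36 promoters (24.3%, against 13.5%) it occurred at least 2 times. It was present in 55.3% of the promoters of genes with CHD7 and in 80.0% of those of the 40 genes with neither mark, so the box was at least as frequent without the marks. TATAAA was found in 2.70%, against 13.5% of all promoters. GGGCGG was found in 43.2%, against 47.3%, CCGGAAGT in 6.76%, against 5.44%, and TGACGTCA in 0.676%, against 2.40%. The palindromic NRF1 motif was found in 2.70%, against 1.37%, the YY1 motif in 1.35%, against 1.25%, and TGCGCA in 8.11%, against 10.1%, where TGCGCA can overlap the NRF1 motif. All were searched on both strands. CACGTG was found in 14 of 80 clustered genes and 1 of 68 single genes, 10.1% in all, against 7.97%. A match of letters is not a binding site, and members of a cluster can share such letters through duplication.

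The genes that encode the partners of KRAB zinc finger proteins were read from a list of 22. The list also holds Zfp57, which is itself a zinc finger gene of the Zfp1 to Zfp599 set and not a partner gene. CHD7 lay at 15 of them (68.2%) and H3K27ac at 17 (77.3%), both above the 46.2% and 49.3% of all genes. Trim28, the corepressor itself, had CHD7 fold of 6.56 and 4.71 and H3K27ac fold of 5.85 and 6.65. Setdb1 had CHD7 fold of 3.93 and 4.83, its partner Atf7ip 5.14 and 4.86, and Uhrf1, which takes part in maintenance of DNA methylation, 5.83 and 5.94. Of the genes for heterochromatin proteins HP1, Cbx5 (3.81 and 4.04) and Cbx3 (3.49 and 3.07) had CHD7, and Cbx1 had H3K27ac alone (5.62 and 5.01). Chd3, a remodeller of the NuRD complex, also had H3K27ac alone (2.48 and 3.08). Neither region lay at an end of Dnmt1, Dnmt3a, Tasor or Zfp57. Of the HUSH complex, Mphosph8 and Pphln1 had both marks, with CHD7 fold of 3.77 and 4.55 and of 3.86 and 3.54.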

How the data were processed

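ChIP-seq peak lists of 6 libraries of sorted GFP+ cells were used, with 2 libraries each for CHD7, H3K27ac and input chromatin. Per the submitters' processing notes, the tools were MACS2 2.1.2, Picard, Bowtie2 2.3.3.1 and bcl2fastq 2.18.0.12, and the build was mm10. The authors deposited 1 list for each library, not called on pooled samples. Each deposited peak has a fold enrichment at its summit, a ratio, with a p-value and a q-value written as −log10, an integer score, and the offset of its summit. Any control for peak calling was not given in the sources used here. Without read counts in the lists, depth is unknown and counting intervals cannot be had. The fold and the q-value, both the authors' own, served to rank, filter and describe peaks of 1 list, and fold was not compared between antibodies. In the alternatives with stricter lists, the same q-value limit or number of peaks was applied to both antibodies.

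From these lists, rows with the same interval were joined, and overlapping peaks (at least 1 bp) of both libraries were merged into regions, 19712 for CHD7 and 17404 for H3K27ac on chromosomes 1 to 19. Gene positions came from a RefSeq table of GRCm38.p6, from which 105 genes with coordinates of unplaced sequence were left out. It has no strand, so strands and starts came from RefSeq promoter sequences, which matched 148 of the 169 genes and 16457 genes in all. Genes were compared by counts and medians beside all genes, without a test, since neighbouring genes are not independent. Shares per library were compared by the exact permutation test, two-sided. The planned count of zinc fingers and KRAB domains was not analysed here, since it needs protein sequences. Other windows, peak thresholds, overlaps, cluster distances and single libraries were tried as alternatives. The gene set, the partner list of 22 genes, the marker genes and the motifs were chosen with earlier results of these data known. Of the partner list, 1 gene is counted but not reported here by name.

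Values are given for the 10 clustered and 10 single genes of highest CHD7 fold, the 5 of highest H3K27ac fold, genes with either mark alone (the 10 of highest fold where more than 15), genes with a mark at both ends or only between 1 and 2.5 kb from an end, and the 3 largest clusters. Genes named for a known role, the clusters on chromosome 8 and those without a mark at any gene end, Zfp965 and Zfp968 were chosen after values were seen. The overlap step recovered 200 of 200 planted peaks at gene ends in simulated lists over 20560 genes. The planted peaks lay within 1 kb of an end in both lists, so this checks the code and not the calls in real lists. Python 3.11.15, numpy 2.4.6, pandas 2.3.3, scipy 1.17.1 and matplotlib 3.10.9 were used.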

Additional observations from a re-analysis of the deposited data

How the results depend on the processing

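The counts of Zfp600 to Zfp999 genes with a region, 97 for CHD7 and 121 for H3K27ac, kept within 1.5 times of these values under the other windows, overlaps and calls tried. The exceptions were the stricter lists. With a −log10 q-value of at least 10 they were 28 (16.6%, against 11.2% of all genes) and 80 (47.3%, against 29.6%), and with the 10000 peaks of lowest q-value in each library CHD7 lay at 52 (30.8%, against 21.5%). With 1 library left out they ranged from 102 to 108 and from 121 to 125.

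The CHD7 share of clustered minus single genes, −2.57 percentage points, was 2.98 with the q-value limit, 3.83 with the 10000 peaks, −8.70 when neighbours up to 250 kb were joined, 0.906 with 50 kb, −5.32 with a window of 2.5 kb, and −4.07 to 2.67 with 1 library left out. Its sign thus changed between the libraries and between settings. The same difference for H3K27ac, 7.78, was −0.309, −2.06, 5.03 (peak in either library), 0.995 (250 kb), 11.2 (neighbours of any Zfp number) and 5.15 to 7.78. In promoters that share no word of 30 bases these differences were 6.58 and 10.9, and for regions at annotated starts −6.98 and 3.75, both alternatives chosen after seeing the data. The cause was not tested.

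The difference of −10.7 percentage points between CHD7 and H3K27ac kept its sign under every alternative run, from −29.6 to −8.58. It was −12.4 to −8.88 when 1 library was left out. The −29.6 came with the q-value limit, where regions of both libraries lay at 11.2% (CHD7) and 29.6% (H3K27ac) of all genes. With the 10000 peaks these all-gene shares were 21.5% and 33.3%, so all genes had a difference of the same sign under both stricter lists. The difference between antibodies in clustered minus single genes, −7.17, reversed to 3.16 with the q-value limit (exact permutation p = 0.667) and to 5.33 with the 10000 peaks (p = 0.33), and was −10.5 to −3.80 with 1 library left out. Library numbers are shared only as numbers. With the replicate block both differences kept their values, −10.7 and −7.17, with an exact p of 0.5, the smallest that 2 pairs allow.

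With 2 libraries of unknown depth for each antibody, a missing region means no call in both libraries, not the absence of CHD7 or H3K27ac.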
